A study of Mus musculus with 6 samples.

Results

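Of 10 genes that make up a short list of the NRF2 antioxidant programme, 1 rose in branchial arch neural crest with floxed Ehmt1 and Ehmt2, the cystine transporter gene Slc7a11. It averaged 22.2 ± 1.66 CPM in the DKO against 11.46 ± 1.26 CPM in the control libraries (mean ± SD, n = 3 each), and the other 9 genes were not called in either direction. Of all tested genes, 2.19% were called higher and 0.818% lower. Because the members were chosen with the rise of Slc7a11 known, 1 of 10 is a description and no test of the list. The list was chosen by symbol and holds Slc7a11, Nqo1, Hmox1, Gclc, Gclm, Txnrd1, Srxn1, G6pdx, the transcription factor gene Nfe2l2 (which encodes NRF2) and its inhibitor gene Keap1. All 10 were found among the 21006 gene symbols of the count table, and all 10 passed the filter on low counts, which left 14555 tested genes. The question was whether the rise of Slc7a11 belongs to a general antioxidant response.

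Polyadenylated RNA was sequenced in 6 libraries from the branchial arches of mouse embryos at E11.5, the swellings that form the jaw, middle ear and throat. The 3 DKO (double knockout) libraries were Ehmt1f/f and Ehmt2f/f, and the 3 control libraries were Ehmt1+/+ and Ehmt2+/+. Both groups carried Rosa26 TdTomato/+ and Wnt1-cre, so that the recombinase acts in the neural crest and other cells of the Wnt1 lineage and marks them with the red protein on which the cells were sorted. Whether 1 embryo or several went into a library is not stated in the labels, and p-values measure the spread between these libraries. Total counts lay between 23414466 and 44538260 per library. Both targeted genes were lower in DKO, with log2 differences of -1.47 for Ehmt2 (SE 0.08; adjusted p = 0.000208 in edgeR) and -0.81 for Ehmt1 (SE 0.10; adjusted p = 0.00476 in edgeR). The 14 markers of arch mesenchyme summed to 2559 to 3210 CPM in DKO samples and 2918 to 3454 CPM in controls, so the defining markers of the labelled cells were present. Of the 14, edgeR called 0 (3.01% over all tested genes). Negative log2 fold changes were found for 9 (median -0.15), where 7459 of all 14555 tested genes were negative. At an unadjusted p below 0.05, 0 were higher and 3 lower (11% and 9.89% over all tested genes). DKO replicate 3 lay nearest the controls on the first principal component (its score was -12.3, DKO replicates 1 and 2 scored -31.8 and -37.0, and controls scored 19.1 to 31.2).

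NRF2 is held in the cytoplasm by KEAP1, which hands it to a CUL3 ubiquitin ligase for breakdown. Oxidants and electrophiles modify KEAP1, NRF2 builds up, pairs with a small MAF protein and binds the antioxidant response element in the promoters of its targets. Those targets make glutathione, reduce thioredoxin, detoxify quinones, break down heme and supply NADPH. Slc7a11 encodes xCT, the subunit that exchanges extracellular cystine for glutamate and so feeds glutathione synthesis, and it is also a target of ATF4, the transcription factor of the amino acid and integrated stress response.

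The promoters of the 3 members with the largest log2 fold changes are shown because Slc7a11 can be driven by either factor. Each window spans 250 bases before to 50 bases after an annotated start (RefSeq, GRCm38, which is mm10), written 5′ to 3′ on the strand of the gene. Capitals mark matches on either strand to TGACNNNGC or TGAGNNNGC, 2 forms of the antioxidant response element core, and to TGATGNAA, the core of the ATF4 composite site. Slc7a11 lies on the minus strand at chr3:50443564-50443863, Gclm on the plus strand at chr3:122245307-122245606 and Srxn1 on the plus strand at chr2:152105274-152105573. The annotated Slc7a11 gene extends upstream to 50499087, so its window lies at an internal start, and the region at the outer end was not searched.
Slc7a11: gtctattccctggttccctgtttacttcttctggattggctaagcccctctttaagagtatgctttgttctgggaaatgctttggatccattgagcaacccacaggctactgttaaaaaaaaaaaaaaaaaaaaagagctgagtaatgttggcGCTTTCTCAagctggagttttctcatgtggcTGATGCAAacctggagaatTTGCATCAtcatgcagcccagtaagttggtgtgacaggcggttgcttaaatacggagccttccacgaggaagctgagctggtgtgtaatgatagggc
Gclm: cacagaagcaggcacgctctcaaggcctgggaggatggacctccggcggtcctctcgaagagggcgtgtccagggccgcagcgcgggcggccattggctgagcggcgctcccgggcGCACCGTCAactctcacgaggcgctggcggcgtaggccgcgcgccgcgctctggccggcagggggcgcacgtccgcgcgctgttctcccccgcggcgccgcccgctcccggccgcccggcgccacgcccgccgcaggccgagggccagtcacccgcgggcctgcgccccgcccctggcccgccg
Srxn1: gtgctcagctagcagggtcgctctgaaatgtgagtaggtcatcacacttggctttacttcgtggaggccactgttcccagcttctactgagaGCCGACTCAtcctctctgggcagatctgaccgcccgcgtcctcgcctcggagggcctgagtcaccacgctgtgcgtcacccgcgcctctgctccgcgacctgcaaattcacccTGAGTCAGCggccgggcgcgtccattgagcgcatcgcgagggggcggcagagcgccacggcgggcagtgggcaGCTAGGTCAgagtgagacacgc

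The Slc7a11 window held the ATF4 core as TGATGCAA at positions 185 to 192 on its own strand and again at positions 204 to 211 on the opposite strand, counted from 1 at the 5′ end. It also held the antioxidant core TGAGAAAGC on the opposite strand at positions 154 to 162, and none of the 3 matches overlap. Of 32851 promoter windows of this length, 3.97% held TGATGNAA, and 23 windows, or 0.07%, held 2 or more. The antioxidant core is common in windows of this length: 12.4% held TGACNNNGC, 17.6% held TGAGNNNGC and 27.8% held either form. Gclm held 1 such core and Srxn1 held 3, and no ATF4 core was found in either window. Among the other members, the windows of G6pdx and Nfe2l2 and 1 of 3 windows of Txnrd1 held TGACNNNGC. The windows of Nqo1 and Keap1 held none of these motifs, and Hmox1 and Gclc were not in the promoter table. A match is a description of letters and not of binding. The Slc7a11 window held 4 CpG dinucleotides, against 48 in Gclm and 26 in Srxn1. Low counts were shared by members that were not called, with 5 in Nqo1 and 3 in 1 of the 3 windows of Txnrd1. The other windows of Txnrd1 had 27 and 12, Keap1 had 13, and G6pdx and Nfe2l2 had 18 each. The median over 14793 windows of tested genes was 19, and 10.3% of those windows had no more CpG than that of Slc7a11.

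Slc7a11 (chromosome 3, 50364936 to 50499087, minus strand) was the member that rose. Levels here are CPM, counts scaled to the size of their library after TMM adjustment, so they compare libraries for one gene and not one gene with another. DKO replicates 1 to 3 measured 22.9, 20.3 and 23.4 CPM, and control replicates 1 to 3 measured 12.5, 11.8 and 10.1 CPM. The lowest DKO library stood well above the highest control library, and DKO replicate 3, the DKO library nearest the controls over all genes, had the highest level. These levels rest on 848, 887 and 1045 counts in DKO and 561, 262 and 295 counts in control libraries. The log2 fold change was 0.95 (SE 0.12; 95% interval 0.67 to 1.23; edgeR quasi-likelihood adjusted p = 0.00663), a ratio of means of 1.93. Calls were made where the p adjusted over all tested genes was below 0.05, and 2.19% of tested genes were called higher and 0.818% lower. Since the members were chosen with this rise known, 1 member called of 10 is a description and no test of the list. The call held under each of 13 other settings, including the removal of any 1 library, with log2 fold changes of 0.86 to 1.03 and adjusted p-values up to 0.0426.

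**Figure D1:**
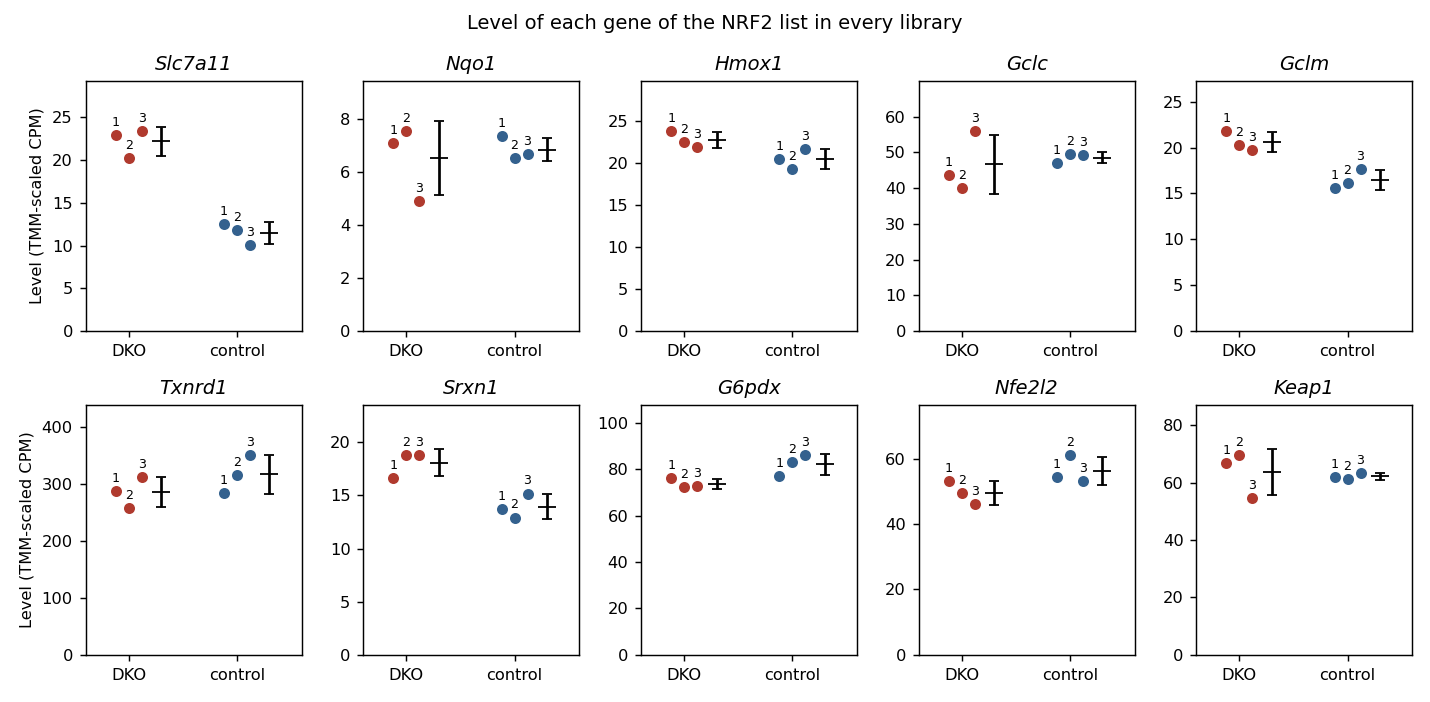
Level of each of the 10 genes in TMM-scaled CPM (vertical axis, from 0) in DKO and control libraries; points are libraries, numbered by replicate, and the bar beside them is the mean with the SD over 3 libraries. Slc7a11 sits between 20.3 and 23.4 CPM in DKO, against 10.1 to 12.5 CPM in controls, while for Nqo1, Gclc, Txnrd1 and Keap1 the groups overlap.

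Glutathione is made from cysteine in 2 steps, and Gclc and Gclm encode the catalytic and the modifier subunit of the first, rate-limiting enzyme. Gclm (chromosome 3, 122245487 to 122267215) measured 21.8, 20.2 and 19.8 CPM in DKO, against 15.6, 16.1 and 17.7 CPM in control libraries. Every DKO library was above every control library, but the difference of 0.32 on the log2 scale was not called (SE 0.10; 95% interval 0.09 to 0.55; edgeR adjusted p = 0.132). Gclc (chromosome 9, 77754535 to 77794489) measured 43.8, 40.2 and 56.0 CPM in DKO, against 46.9, 49.7 and 49.2 CPM in control libraries. The DKO libraries lay on both sides of the controls, with DKO replicate 3 the highest of all 6, and the log2 fold change was -0.06 (SE 0.12; 95% interval -0.34 to 0.22; edgeR adjusted p = 0.828). It turned to 0.022 with scaling by library size only and to 0.039 without DKO replicate 2. Both subunit genes missed the threshold.

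Srxn1 and Txnrd1 act on protein thiols: sulfiredoxin restores overoxidised peroxiredoxins, and thioredoxin reductase 1 regenerates cytosolic thioredoxin. Srxn1 (chromosome 2, 152105524 to 152111376) measured 16.7, 18.8 and 18.8 CPM in DKO, against 13.8, 12.9 and 15.2 CPM in control libraries. The groups did not overlap, and the log2 fold change of 0.37 was not called (SE 0.11; 95% interval 0.12 to 0.63; edgeR adjusted p = 0.12). Txnrd1 (chromosome 10, 82833951 to 82897724) measured 288, 258 and 312 CPM in DKO, against 284, 317 and 352 CPM in control libraries. Its groups overlapped, with the lowest level in DKO replicate 2 and the highest in control replicate 3, and its log2 fold change was -0.15 (SE 0.10; 95% interval -0.39 to 0.09; edgeR adjusted p = 0.441).

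Nqo1 encodes a quinone reductase and is widely read as an indicator of NRF2 activity. It measured 7.09, 7.54 and 4.92 CPM in DKO, against 7.34, 6.51 and 6.67 CPM in control libraries (chromosome 8, 107388225 to 107403205). The lowest of the 6 values was in DKO replicate 3, the library in which Slc7a11 was highest. The log2 fold change of -0.07 had the widest interval of the 10 genes (SE 0.19; 95% interval -0.51 to 0.36; edgeR adjusted p = 0.869), and its sign turned without DKO replicate 3 (0.094) and with scaling by library size only (0.0045).

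Hmox1 encodes heme oxygenase 1, which breaks down heme and which in tissue is also made by macrophages. The level was 23.8, 22.5 and 21.9 CPM in DKO, against 20.5, 19.2 and 21.6 CPM in control libraries (chromosome 8, 75093618 to 75100593). DKO libraries were narrowly above controls, and the log2 fold change of 0.15 was not called (SE 0.09; 95% interval -0.06 to 0.37; edgeR adjusted p = 0.381). The 12 erythroid markers summed to 25.6 to 327 CPM in DKO samples against 108 to 186 CPM in controls, and the 13 macrophage and immune markers to 9.32 to 20.5 CPM in DKO samples against 10.3 to 13.9 CPM in controls. Both sums overlapped between groups, each with DKO replicate 3 as the highest library. DKO replicates 1 and 2 had erythroid sums of 25.6 and 64.4 CPM, below every control. Of these markers 1 was called, the erythropoietin receptor gene Epor, with 5.55, 6.37 and 3.62 CPM in DKO, against 1.86, 1.70 and 1.74 CPM in control libraries (log2 fold change 1.55, SE 0.25; edgeR adjusted p = 0.0165), while 8 of the 10 tested erythroid markers had negative log2 fold changes. Over all tested genes 2.19% were called higher and 0.818% lower, and 7459 of 14555 had negative log2 fold changes. In bulk RNA fewer cells of a type and less RNA per cell cannot be told apart. The part of erythroid cells and macrophages in the Hmox1 level was not tested.

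G6pdx encodes glucose-6-phosphate dehydrogenase, the entry enzyme of the pentose phosphate pathway and a main source of NADPH for glutathione and thioredoxin reductases. It measured 76.0, 72.3 and 72.6 CPM in DKO, against 76.9, 82.9 and 86.2 CPM in control libraries (chromosome X, 74409483 to 74428880). DKO libraries were all below controls, by a small margin at the nearest pair, and the log2 fold change of -0.16 was not called (SE 0.07; 95% interval -0.32 to 0.01; edgeR adjusted p = 0.257).

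The genes of the NRF2 switch itself were not called either. Nfe2l2 (chromosome 2, 75675513 to 75704663) measured 53.1, 49.3 and 46.0 CPM in DKO, against 54.3, 61.15 and 53.3 CPM in control libraries. DKO libraries were all below controls, and the log2 fold change of -0.18 had an interval that reached 0 (SE 0.09; 95% interval -0.39 to 0.02; edgeR adjusted p = 0.272). Keap1 (chromosome 9, 21229730 to 21239332) measured 66.9, 69.7 and 54.7 CPM in DKO, against 62.1, 61.15 and 63.3 CPM in control libraries. DKO replicate 3 was the lowest and DKO replicates 1 and 2 the highest of the 6, and the log2 difference was 0.04 (SE 0.10; 95% interval -0.19 to 0.26; edgeR adjusted p = 0.871), which turned to -0.032 without DKO replicate 2. NRF2 is controlled mainly through the stability of the protein, which RNA counts do not measure.

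**Figure D2:**
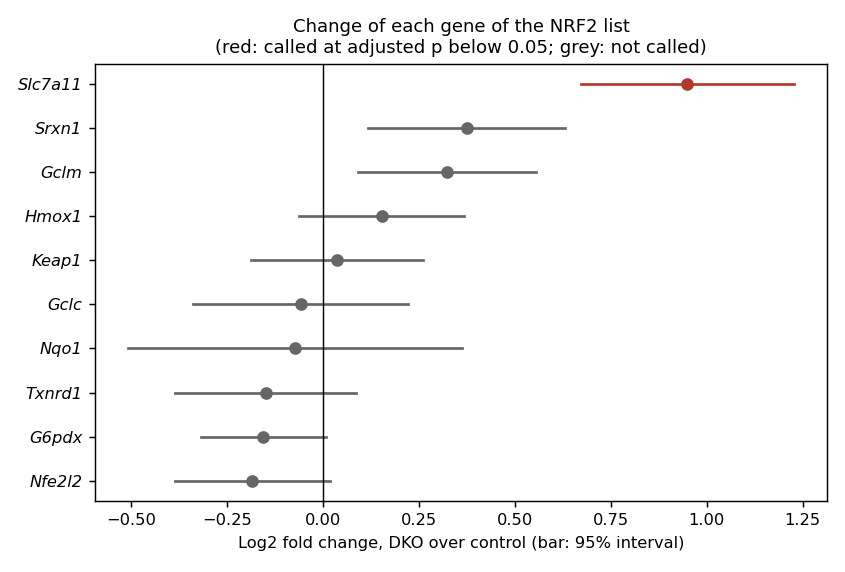
Log2 fold change of DKO over control (horizontal axis) for each of the 10 genes, with its 95% interval; red marks the gene called at an adjusted p below 0.05 and grey those not called. The interval of Slc7a11 runs from 0.67 to 1.23, and the highest upper bound among the other 9 genes is 0.63, for Srxn1.

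Across the list, 5 members had positive and 5 negative log2 fold changes, and the median was -0.01, beside -0.01 over all tested genes. With scaling by library size only, 7 were positive and 3 negative, and the median was 0.069, beside 0.073 over all tested genes. Without DKO replicate 3 the median was 0.115, beside -0.00056 over all tested genes, with 6 positive and 4 negative. At an unadjusted p below 0.05, Slc7a11, Gclm and Srxn1 were higher and 0 members were lower, where 11% of all tested genes were higher and 9.89% lower at that threshold. DESeq2 and limma-voom each called 1 member higher and 0 lower, against 4.29% of all genes higher and 3.31% lower with DESeq2 and 1.96% higher and 0.715% lower with limma-voom. DKO libraries lay above controls without overlap for 4 members (Slc7a11, Gclm, Srxn1 and Hmox1) and below for 2 (G6pdx and Nfe2l2, which both overlapped with scaling by library size only). Over all tested genes such separation was found for 14.5% above and 12.7% below, 27.2% in either direction. A 2-fold rise, a log2 fold change of 1, lay above the 95% interval of each of the 9 members not called, and so did the estimate for Slc7a11 itself, whereas differences of the size seen in Gclm and Srxn1 were not resolved from 0 after adjustment.

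Counts of 2 genes within a library form a ratio that does not depend on how libraries are scaled. Slc7a11 had 1.048, 1.001 and 1.181 counts per count of Gclm in DKO, against 0.804, 0.730 and 0.5695 in control libraries. Per count of Nfe2l2 it had 0.4305, 0.411 and 0.508 in DKO, against 0.231, 0.192 and 0.189 in control libraries. The ratio was higher in all 3 DKO libraries for each of the 9 other members, by 1.49-fold relative to Srxn1, 1.55-fold relative to Gclm and up to 2.20-fold relative to Nfe2l2. The 9 ratios share the Slc7a11 counts, whose rise is given above, so their separation largely restates it and is a description with no test.

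**Figure D3:**
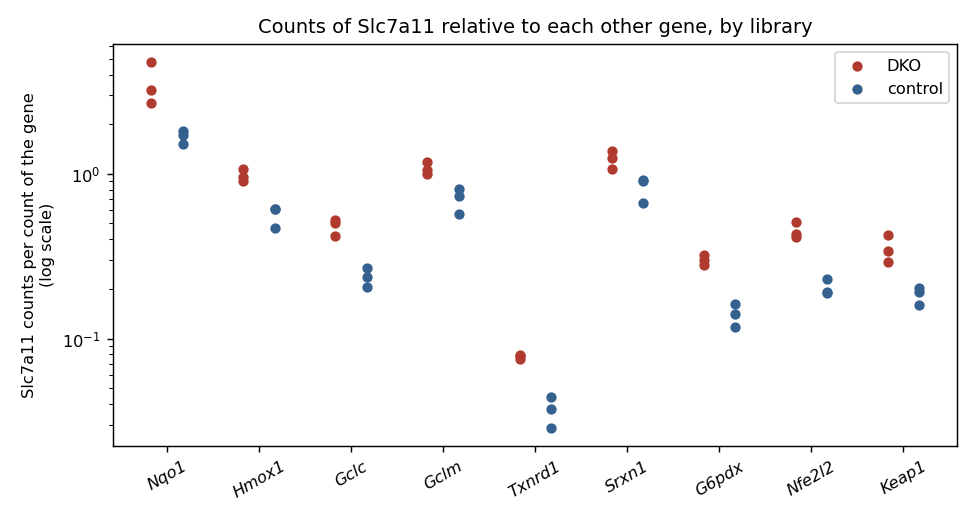
Counts of Slc7a11 per count of each of the 9 other genes (vertical axis, log scale) in each DKO and control library; points are libraries. In every column the 3 DKO points lie above the 3 control points, with the smallest fold between groups for Srxn1 (1.49) and the largest for Nfe2l2 (2.20).

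xCT works only as a pair with the heavy chain 4F2hc, encoded by Slc3a2. Slc3a2 measured 139.6, 131 and 132 CPM in DKO, against 129.9, 129 and 158 CPM in control libraries, with a log2 fold change of -0.05 whose sign turned with library-size scaling (0.030; edgeR adjusted p = 0.805 in the TMM fit). The groups overlapped, and no change of the partner was resolved from the spread between libraries. Of 20 tested genes of cystine uptake and glutathione turnover, 0 rose and 1 fell (2.19% and 0.818% over all tested genes). At an unadjusted p below 0.05, 1 was higher and 1 lower (11% and 9.89% over all tested genes). DESeq2 also called 0 higher and 1 lower (4.29% and 3.31% over all tested genes), as did limma-voom (1.96% and 0.715%). The gene that fell was Cbs, cystathionine beta-synthase, which makes the precursor of cysteine from homocysteine inside the cell. It measured 0.728, 1.21 and 0.961 CPM in DKO, against 2.71, 3.63 and 3.01 CPM in control libraries, or -1.67 on the log2 scale (SE 0.26; edgeR adjusted p = 0.0159). The groups lay far apart at a low level, but the call ended without DKO replicate 1 or any of control replicates 1, 2 and 3 (adjusted p = 0.072, 0.0531, 0.0713 and 0.0593).

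Among 26 tested genes of the thioredoxin system, peroxiredoxins, glutathione peroxidases, catalase, superoxide dismutases, methionine sulfoxide reductases and sestrins, 1 rose and 0 fell. The shares over all tested genes were 2.19% higher and 0.818% lower. At an unadjusted p below 0.05, 4 were higher and 1 lower (11% and 9.89% over all tested genes). DESeq2 called 2 higher and 0 lower (4.29% and 3.31% over all tested genes), and limma-voom 1 and 0 (1.96% and 0.715%). The rise was in Msrb2, a mitochondrial methionine sulfoxide reductase gene, with 19.3, 19.7 and 13.9 CPM in DKO, against 8.36, 10.9 and 6.70 CPM in control libraries (a log2 difference of 1.03 with SE 0.21; edgeR adjusted p = 0.0385). All DKO libraries were above controls, and the call ended without DKO replicate 1 or 2 or control replicate 1 or 3 (adjusted p = 0.16, 0.0941, 0.111 and 0.109). The median log2 fold change of this group was 0.02.

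NADPH-producing enzymes beside G6pdx had 17 tested members and 0 called by edgeR (3.01% over all tested genes, either direction) or limma-voom. DESeq2 called 0 higher and 2 lower (4.29% and 3.31% over all tested genes). At an unadjusted p below 0.05, 0 were higher and 2 lower (11% and 9.89% over all tested genes). Of the 17 log2 fold changes 12 were negative (median -0.11), where 7459 of all 14555 tested genes were negative (median -0.0062). The transketolase gene Tkt measured 362 ± 17.1 CPM in DKO against 415 ± 49.8 CPM in controls (n = 3 each, SD), or -0.20 on the log2 scale (edgeR adjusted p = 0.291). Idh2, the mitochondrial NADP-dependent isocitrate dehydrogenase gene, measured 211 ± 10.2 CPM in DKO against 259 ± 20.7 CPM in controls (n = 3 each, SD), a difference of -0.29 on the log2 scale that edgeR did not call (adjusted p = 0.0996) and DESeq2 did (adjusted p = 0.018; range over the 13 alternatives 0.018 to 0.306). In the heme and iron group, 16 genes were tested and 0 were called by edgeR (3.01% over all tested genes, either direction) or limma-voom. DESeq2 called 0 higher and 1 lower (4.29% and 3.31% over all tested genes). At an unadjusted p below 0.05, 1 was higher and 1 lower (11% and 9.89% over all tested genes). The ferritin genes Fth1 and Ftl1, whose protein stores iron and which NRF2 can induce, had log2 fold changes of -0.15 and -0.04 (edgeR adjusted p = 0.409 and 0.864), and that of Ftl1 turned to 0.04 with library-size scaling.

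Partners and regulators of NRF2 had 20 tested members, 0 called by edgeR (3.01% over all tested genes, either direction) or limma-voom. At an unadjusted p below 0.05, 0 were higher and 4 lower (11% and 9.89% over all tested genes). DESeq2 called 0 higher and 3 lower (4.29% and 3.31% over all tested genes). Of the 20 log2 fold changes 14 were negative, where 7459 of all 14555 tested genes were negative. DKO libraries lay below controls without overlap for 6 of the 20 and above for 0 (12.7% and 14.5% over all tested genes). The small MAF genes, whose proteins pair with NRF2, had log2 fold changes of 0.32 (Maff), 0.09 (Mafk) and -0.01 (Mafg, which turned to 0.07 with library-size scaling). The repressor genes Bach1 and Bach2, which compete for the same sites, had 0.06 and -0.18. The related factors Nfe2l1 and Nfe2 had -0.08 (0.0041 with library-size scaling) and 0.47. Nfe2l3, another relative, had the value nearest to the threshold, with 0.566, 0.754 and 0.738 CPM in DKO, against 1.57, 1.62 and 1.33 CPM in control libraries (log2 fold change -1.12, SE 0.25; edgeR adjusted p = 0.0562; DESeq2 adjusted p = 0.0484; range over alternatives 0.0484 to 0.24). Of the 2 most abundant regulators, Cand1, a cullin exchange factor gene, had -0.14 (edgeR adjusted p = 0.362). The other, Gsk3b, whose kinase marks NRF2 for breakdown, had -0.25 (edgeR adjusted p = 0.0811, DESeq2 adjusted p = 0.00288, range over alternatives 0.00288 to 0.328). Cul3, the gene of the CUL3 ligase named above, had -0.32 (SE 0.09, edgeR adjusted p = 0.0977) and was not called by edgeR. Every DKO library was below every control library for Cul3.

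Detoxication genes held 7 of the 8 other rises in these groups. Of 48 listed genes of drug and electrophile metabolism that have been linked to NRF2 in mouse, 36 were tested, 7 rose and 0 fell, where 3.01% of all tested genes were called in either direction; several of the 7 were known to rise in these data when the list was drawn up, so their count supports nothing about the list. At an unadjusted p below 0.05, 11 of the 36 were higher and 1 lower, where 11% of all tested genes were higher and 9.89% lower. DESeq2 called 8 higher (4.29% over all tested genes) and limma-voom 6 (1.96%), each with 0 lower (3.31% and 0.715%). The median log2 fold change was 0.16. Aldh1a7, a retinaldehyde dehydrogenase relative, measured 21.8, 21.0 and 23.5 CPM in DKO, against 4.70, 4.22 and 3.93 CPM in control libraries (a log2 difference of 2.36 with SE 0.12; edgeR adjusted p = 0.000208). The other 3 by rank were nearly silent in controls. Abcc2, which exports glutathione conjugates and other organic anions, had 972 counts in DKO and 13 in control libraries, and the aldo-keto reductase gene Akr1c13 had 840 in DKO and 8 in control libraries. Akr1c12, a close paralog of Akr1c13 with which it could share reads, had 106 counts over the DKO libraries and 0 over the controls, at least 27.1-fold higher when the controls are set to 3 counts over the group.

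The remaining 3 rises of that group, named after their values were seen, differed in evenness. Gstt1, a theta-class glutathione transferase gene, measured 11.4, 15.3 and 5.12 CPM in DKO, against 3.18, 2.11 and 1.88 CPM in control libraries (edgeR adjusted p = 0.0401). DKO replicate 3 was the lowest DKO library for Gstt1. The related gene Gstt2 measured 4.74, 5.37 and 4.34 CPM in DKO, against 2.68, 1.93 and 2.67 CPM in control libraries (edgeR adjusted p = 0.0453). Aldh1a1 measured 1.08, 1.69 and 0.983 CPM in DKO, against 0.38, 0.0897 and 0.205 CPM in control libraries (edgeR adjusted p = 0.0349). All 3 were higher in each DKO library than in any control, but their calls were the least secure of the 7. Under the 13 alternatives the adjusted p ranged up to 0.177 for Gstt1, 0.172 for Gstt2 and 0.12 for Aldh1a1. Each call ended without DKO replicate 1, DKO replicate 2 or any 1 of the 3 control libraries; that of Gstt1 also ended with limma-voom (adjusted p = 0.102), and that of Gstt2 with the filter of 1 CPM in 3 libraries (adjusted p = 0.0515).

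The ATF4 group gives the other known route to Slc7a11. Of 30 tested genes, Atf4 itself and its targets, 0 were called by edgeR (3.01% over all tested genes, either direction) or limma-voom. DESeq2 called 1 higher and 0 lower (4.29% and 3.31% over all tested genes). Sesn2, Chac1 and Cth of this group were also counted in the thioredoxin or glutathione groups above. At an unadjusted p below 0.05, 2 were higher and 2 lower (11% and 9.89% over all tested genes). The 2 higher were Ppp1r15a (log2 fold change 0.33) and Asns (0.26), and the 2 lower were Cebpg (-0.21) and Xpot (-0.17). The median log2 fold change was -0.09, and 22 of the 30 were negative, where 7459 of all 14555 tested genes were negative. Atf4 itself measured 355, 289 and 332 CPM in DKO, against 254, 298 and 319 CPM in control libraries, and its groups overlapped (log2 fold change 0.16, SE 0.11; edgeR adjusted p = 0.423). Slc38a2, an amino acid transporter gene, had -0.10 (edgeR adjusted p = 0.569).

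**Figure D4:**
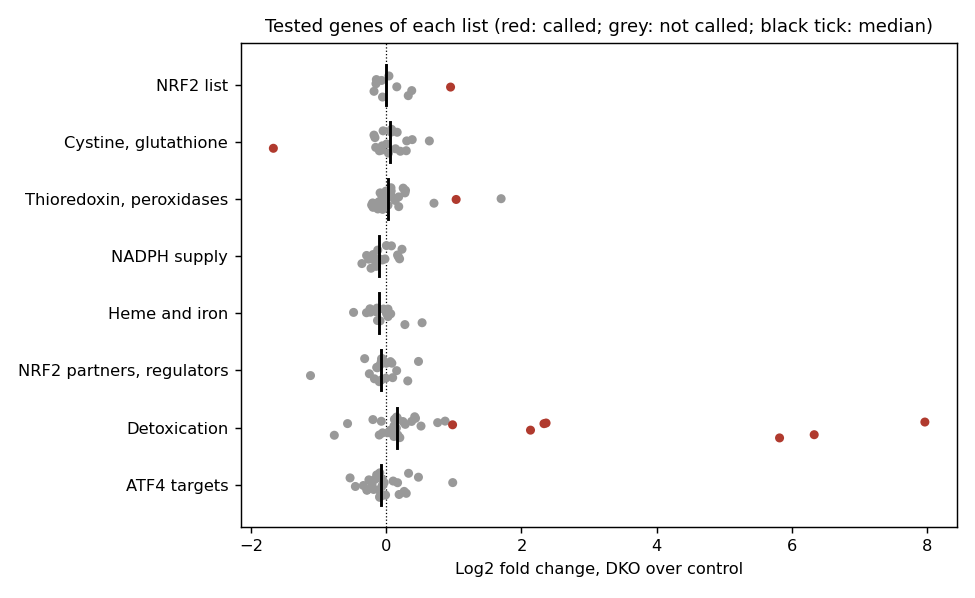
Log2 fold change of DKO over control (horizontal axis) for every tested gene of the NRF2 list and 7 related groups (rows); red points were called, grey points were not, and the black tick is the median of the group. Of the 9 red points outside the NRF2 list, 7 lie in the detoxication row, and the NADPH, heme and iron, NRF2 partner and ATF4 rows have no red point.

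The protein-coding genes nearest to Slc7a11 on each side were not called, and their groups overlapped. Pcdh18, a protocadherin gene 607.6 kb away on the side of lower coordinates, measured 330 ± 50.7 CPM in DKO against 307 ± 42.0 CPM in controls (n = 3 each, SD; log2 fold change 0.11, edgeR adjusted p = 0.702). Noct, which encodes the circadian phosphatase nocturnin, lies 725 kb away on the other side and measured 25.7 ± 2.60 CPM in DKO against 28.5 ± 1.34 CPM in controls (n = 3 each, SD; log2 fold change -0.15, edgeR adjusted p = 0.435). Among all tested genes, the 3 whose 6 library values came closest to those of Slc7a11 were Sdr42e1, Slc43a3 and Cyp27a1, by the root mean square difference of log2 CPM centred on the control mean (0.063, 0.107 and 0.127). Slc43a3, a purine nucleobase transporter gene, measured 82.0 ± 3.99 CPM in DKO against 42.5 ± 3.04 CPM in controls, and Cyp27a1, the sterol 27-hydroxylase gene, measured 14.9 ± 0.761 CPM in DKO against 8.29 ± 0.557 CPM in controls (n = 3 each, SD). Sdr42e1 was measured at 0.611 ± 0.0741 CPM in DKO against 0.296 ± 0.0505 CPM in controls (n = 3 each, SD) and was not called (edgeR adjusted p = 0.127).

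Markers of other cells were measured in the same libraries. The 10 endothelial markers summed to 38.6 to 43.1 CPM in DKO samples against 24.4 to 27.5 CPM in controls, without overlap like Slc7a11. All 10 had positive log2 fold changes (median 0.44), where 7096 of all 14555 tested genes were positive. At an unadjusted p below 0.05, 3 were higher, Tie1, Pecam1 and Emcn (11% over all tested genes). Of the 10, 1 was called, Tie1. Over all tested genes 2.19% were called higher and 0.818% lower. Tie1 alone measured 7.24 to 8.998 CPM in DKO samples against 0.807 to 1.10 CPM in controls. The 8 glial markers summed to 271 to 281 CPM in DKO samples against 279.5 to 309 CPM in controls, and the 12 neuronal markers to 952 to 1063 CPM in DKO samples against 1038 to 1267 CPM in controls. Of the 12 neuronal markers 11 had negative log2 fold changes, where 7459 of all 14555 tested genes were negative. At an unadjusted p below 0.05, 0 were higher and 4 lower (11% and 9.89% over all tested genes). By edgeR 1 was called lower, the sensory neuron factor gene Pou4f1 (-0.45, SE 0.09, edgeR adjusted p = 0.0306). DESeq2 called 0 higher and 2 lower (4.29% and 3.31% over all tested genes). The 12 epithelial markers (20.5 to 35.8 CPM in DKO samples and 25.4 to 30.7 CPM in controls) and the 10 mesoderm and muscle markers (27.9 to 45.1 CPM in DKO samples and 23.9 to 29.3 CPM in controls) overlapped as well. The epithelial sum was below every control in DKO replicates 1 and 2 and highest of all libraries in DKO replicate 3. No marker was at 0 in all libraries, and the part of other cells in the rise of Slc7a11 was not tested.

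Some counts are uncertain because how reads were counted, and with which strand setting, is not stated. In the GENCODE M21 annotation, Txnrd1 contains the gene Eid3 on its own strand, and G6pdx overlaps Ikbkg on the opposite strand. Slc7a11, Gclm, Nfe2l2 and Keap1 overlap non-coding loci or pseudogenes that are not in the count table.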

How the data were processed

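The deposited values are raw counts of reads for each gene symbol, and the table's columns headed WT were read as the control libraries of the same replicate number. The submitters' processing notes name Trim Galore, Picard and STAR 2.7.10a, and the mm10 build. How reads were counted, the annotation and the handling of duplicates were not given in the sources used here. Per the labels' protocols, libraries came from a stranded mRNA kit.

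Counts were analysed in R 4.3.3 with edgeR 4.0.16: filterByExpr by group (at least 10 counts, total at least 15), TMM scaling, and the robust quasi-likelihood test, 2-sided, with a term for group alone. Benjamini-Hochberg adjustment ran over all 14555 genes. The SE was derived from the log2 fold change and the square root of F, and 95% intervals, not adjusted for many genes, use its total degrees of freedom. On counts simulated for DKO against control over 14555 genes, the test recovered 96 of 100 genes changed 2-fold and 100 of 100 changed 4-fold, drawn from genes with at least 1 CPM. Every simulated gene had the same dispersion, a common value of 0.0232, and no library was made to deviate from its group. These recoveries are therefore not the power in the real libraries. Alternatives were RLE scaling, library size only, 2 other filters, DESeq2 1.42.0, limma-voom (limma 3.58.1), a replicate block and leaving out each library. Coordinates and promoters are from RefSeq GRCm38.p6. The members, the gene lists and the markers were chosen with earlier results of these data known. Named were all 10 members, the targeted genes, up to 4 called genes of each group by adjusted p (or its 2 most abundant where none was called), direct partners of NRF2 and xCT, the 3 genes most like Slc7a11 and its neighbours. The markers Tie1, Pecam1, Emcn, Epor and Pou4f1, the ATF4 targets Ppp1r15a, Asns, Cebpg and Xpot, and Cul3 were named after their values were seen. One listed symbol, Nars1, was not found in the table.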

Additional observations from a re-analysis of the deposited data

How the results depend on the processing

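Under the 13 alternatives, 1 member was called higher and 0 lower each time, and 23 of 41 named genes kept their direction and their side of the threshold. Another 3 (Akr1c12, Nfe2 and Sdr42e1) kept both in 12, and the filter of 1 CPM in 3 libraries left them out. Over all genes, 319 higher and 119 lower became 624 and 482 with DESeq2, 196 lower with the replicate block, and 416 higher and 80 lower with library size only. Without any 1 library the counts were 110 to 597 higher and 21 to 509 lower. In the related groups, 8 higher and 1 lower became 4 to 10 higher and 0 to 7 lower without 1 library, and 7 lower with DESeq2. Signs turned for genes near 0 that were not called. With library size only, these were Nqo1 (0.0045), Gclc (0.022), Slc3a2 (0.030), Nfe2l1 (0.0041), Mafg (0.070) and Ftl1 (0.038), and the stricter filter turned Mafg (0.0068). Without 1 library, the log2 fold changes ranged from -0.19 to 0.094 (Nqo1), -0.21 to 0.039 (Gclc), -0.032 to 0.14 (Keap1), -0.094 to 0.053 (Slc3a2), -0.053 to 0.021 (Mafg) and -0.13 to 0.029 (Ftl1). With library size only, the median over all tested genes moved as well, from -0.0062 to 0.073. The cause of the turns without 1 library was not tested. Same-numbered libraries of the 2 groups correlated at 0.051, -0.026 and 0.356 in their deviations from the group mean, so the numbers were not read as pairs; with the replicate block Slc7a11 stood at 0.95 (adjusted p = 0.00313) and no other member was called. At 3 libraries a group, log2 differences of 0.32 and 0.37, for Gclm and Srxn1, did not pass the threshold.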
